A study of Homo sapiens with 3 samples.

Results

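The ubiquitin-conjugating (E2) genes examined here are the protein-coding genes of the human annotation whose symbol consists of UBE2 followed by a letter and any further letters or digits. This rule, which uses no measured value, selected 36 of the 19926 protein-coding genes and of the 61193 genes in all that could be matched to the deposited data. Their mRNA was measured by RNA-seq in HEK293T cells, a line of human embryonic kidney origin in which SV40 large T antigen is expressed. The cells were an unmodified and untreated culture in medium with 10% serum and was collected 24 h after seeding, and 3 independent biological replicates of this 1 condition were sequenced. The samples analysed here therefore offer no comparison between conditions and no test was made. The comparisons below are between genes and between replicates, and for the main counts of E2 genes the share over all protein-coding genes is given.

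Ubiquitin, a small protein, is attached to other proteins by a relay. An activating enzyme (E1) charges an E2 with ubiquitin on its catalytic cysteine, and a ligase (E3) brings the charged E2 to the protein to be marked. The E2 often decides which kind of chain is built, so that chains linked through lysine 48 (K48) send proteins to the proteasome, whereas chains linked through lysine 63 (K63) serve signalling and DNA repair. Some E2s carry relatives of ubiquitin instead, such as NEDD8, SUMO or ISG15, and a few lack the catalytic cysteine and act only as partners.

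The libraries were primed at the poly(A) tail and held 6262175 to 8521624 counts. Levels are given as TPM (transcripts per 1000000), in which the count is divided by the length of the transcript and every library sums to 1000000. A count of 0 allows up to 3 counts, equal to 0.352 to 0.479 counts per 1000000, and such limits cover counting error only. In replicate 3, genes of the mitochondrial genome took 44.2% of TPM, compared with 22.8% in replicate 1 and 15.4% in replicate 2, and since TPM has a fixed sum, levels of replicate 3 are also given below with these genes left out. Of 7 genes listed as markers of HEK293T, 3 reached a mean of 1 TPM (PAX2 with 42 to 59 counts, LHX1 and KRT8), while VIM had 0 to 6 counts and NEFL, NEFM and KRT18 had none. Of 4 markers of other cells, PTPRC, HBB and ALB had no count in any replicate, and COL1A1 had 24.8 ± 0.330 TPM (SD, n = 3). VIM, NEFM, KRT18, HBB and ALB have a shared 3′ end, a limit described below, whereas NEFL and PTPRC have one of their own. PAX2 was counted although its 3′ end is also shared. Whether the low counts of markers with a shared 3′ end come from the counting or from the cells was not tested.

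Of the 36 E2 genes, 31 had a count in at least 1 replicate and 21 (58.3%) had a mean of at least 1 TPM, a level that 38.2% of protein-coding genes reached. Genes at or above 24.1 TPM, the third quartile of the 13296 genes with at least 1 TPM, were classed as highly expressed. This class held 10 E2 genes (27.8%) and 12.5% of protein-coding genes, and all 10 were in it in every replicate. A further 7 E2 genes were medium and 4 were low, that is at or below the first quartile of 2.40 TPM. The class was the same in every replicate for 32 E2 genes (88.9%) and for 85.2% of protein-coding genes. At the other end, 12 E2 genes (33.3%) had at most 3 counts in every replicate, compared with 50.9% of protein-coding genes, and 5 of them (13.9%, compared with 36.5%) had none. The median of the mean levels was 1.92 TPM over the 36 E2 genes and 0.195 TPM over protein-coding genes. In bulk RNA, fewer cells with a transcript and less transcript per cell cannot be told apart.

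**Figure D1:**
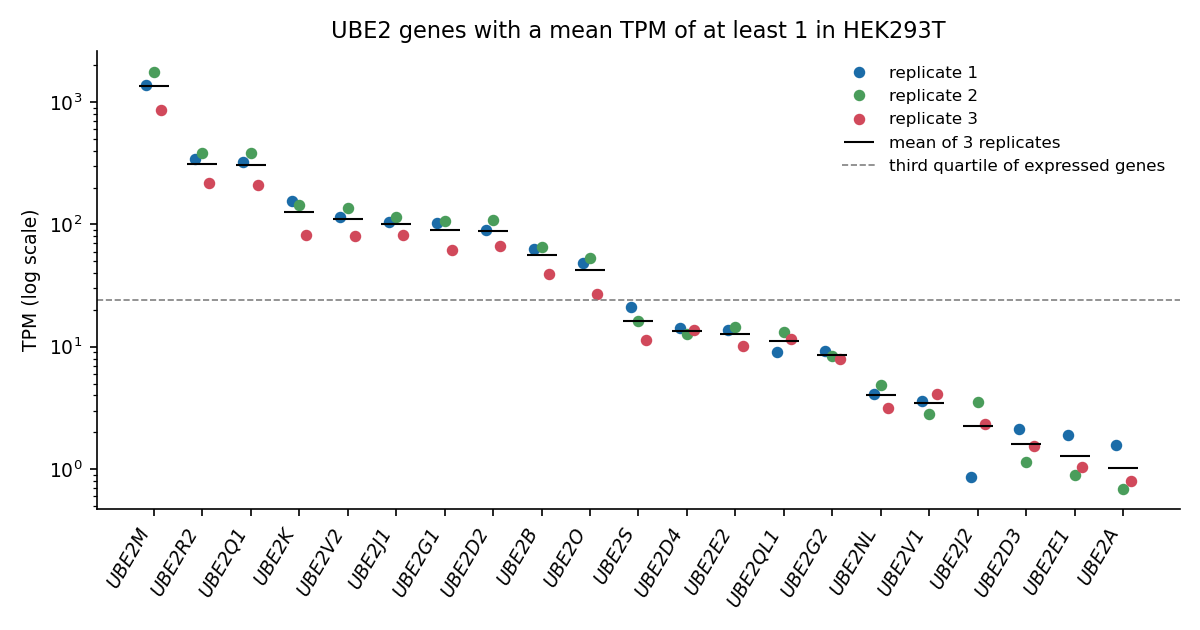
TPM (log scale) of the 21 E2 genes with a mean of at least 1 TPM, in order of the mean. Points are the replicates, black lines are the means of the 3 replicates and the dashed line is the third quartile of expressed genes, 24.1 TPM; UBE2M stands above all others, and the 10 genes from UBE2M to UBE2O lie above the dashed line in every replicate.

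The E2s of ubiquitin-like modifiers held the highest member of the family and 4 genes below 1 TPM. UBE2M, which passes NEDD8 to the cullins, the scaffolds of a large class of ligases, had 7328 counts in replicate 1, 7914 in replicate 2 and 6659 in replicate 3. Its level was 1393, 1781 and 861.5 TPM, with a mean of 1345 ± 462 TPM (SD, n = 3), and even its lowest replicate lay above the highest value of any other E2 gene, 385.2 TPM. Without division by length the genes overlapped, since the lowest replicate of UBE2M had 781.4 counts per 1000000 and the highest of UBE2R2 had 1048. UBE2M (ENSG00000130725) lies on the minus strand of chromosome 19 from 58555712 to 58558954. It alone made up 50.1% ± 2.65 of the summed TPM of the family and 23.1% ± 1.86 of its counts (SD, n = 3). Its canonical transcript has 1159 bases and is one of the shorter ones, so that division by length raises it relative to E2 genes with longer transcripts.

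The other E2s of this group had few or no counts. UBE2F, the second E2 for NEDD8, had 2, 0 and 4 counts in replicates 1, 2 and 3. UBE2Z, which is charged by the alternative activating enzyme UBA6, had 7, 7 and 4 counts. None of their counts was on the canonical transcript. UBE2L6, the E2 for the interferon-induced modifier ISG15, had 2 counts in replicate 2 and none in the others. The group thus held UBE2M, with at least 6659 counts in every replicate, beside genes with at most 7 in each of them. However, all of the last 300 exonic bases of the canonical UBE2M transcript lie in no other listed transcript on its strand. In UBE2Z only 2 do, and in UBE2F and UBE2L6 0 do, a limit described below.

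The E2s of K48 chains and of protein degradation at the endoplasmic reticulum (ER) all had a mean of at least 1 TPM (6 of 6), and 4 were highly expressed. UBE2R2, which extends K48 chains on substrates of cullin-RING ligases, had 6920, 6560 and 6520 counts and 340.6, 382.2 and 218.4 TPM in replicates 1, 2 and 3. UBE2K, which builds K48 chains, followed with 155.2, 144.5 and 81.4 TPM. UBE2G1, another partner of cullin-RING ligases, had 102.7, 106.1 and 61.9 TPM. In each of these genes replicate 3 was the lowest. UBE2J1 is anchored in the ER membrane and takes part in the removal of misfolded proteins. It had 1971, 1854 and 2293 counts and 101.0 ± 17.0 TPM (SD, n = 3). Its relative UBE2J2 had 2, 7 and 8 counts and changed class from none to medium between replicates. UBE2G2, which also serves degradation at the ER, had 61, 47 and 80 counts and 8.53 ± 0.668 TPM (SD, n = 3), but only 13, 12 and 9 of these counts were on its canonical transcript, and 67.6% were on a single transcript with a retained intron.

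Among the E2s that start ubiquitin transfer with many different ligases, 5 of 9 had a mean of at least 1 TPM and 1 was highly expressed. UBE2D2, one of 4 closely related UBE2D enzymes, had 1043, 1058 and 1135 counts and 89.1 ± 21.0 TPM (SD, n = 3). UBE2D4 had 194, 139 and 252 counts and 13.5 ± 0.685 TPM (SD, n = 3). The 2 remaining UBE2D genes were far lower, since UBE2D3 had 31, 20 and 48 counts and UBE2D1 had none in any replicate. UBE2E2 had 169, 144 and 182 counts, while its relative UBE2E1 had 5, 4 and 4 and UBE2E3 had 1 count in replicate 3 only. UBE2W, which modifies the amino terminus of proteins, had 2, 2 and 1 counts. UBE2L3, which serves HECT and RBR ligases, had no count. The UBE2D and the UBE2E genes thus each held both genes with over 100 counts in every replicate and genes at or near 0. However, UBE2D1, UBE2D3, UBE2E3, UBE2W and UBE2L3 share nearly all of the last 300 exonic bases of their canonical transcript with other listed transcripts. Only 0 to 3 of these bases are their own, a limit described below. In UBE2D2, UBE2D4, UBE2E2 and also the hardly counted UBE2E1, all 300 are.

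The E2s of K63 chains showed the same contrast between partners of one enzyme. K63 chains are built by UBE2N together with UBE2V1 or UBE2V2, which lack the catalytic cysteine. UBE2V2 had 2247, 2253 and 2309 counts and 110.3 ± 28.2 TPM (SD, n = 3). UBE2V1 had 9, 6 and 15 counts and 3.49 ± 0.630 TPM, none of them on its canonical transcript. The partners thus differed far beyond the spread between replicates. UBE2N, the catalytic enzyme of both, had 1 count in replicate 3 and none in the others, which is below the limit that a count of 0 allows. It also has 0 of these 300 bases of its own. UBE2NL, an intronless relative of UBE2N on the X chromosome whose listed transcript the annotation types as a loss-of-function form, had 22, 22 and 25 counts.

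The E2s of chromatin and of DNA repair included 1 highly expressed gene. UBE2B and UBE2A are near-identical enzymes that act with RNF20 and RNF40 on histone H2B and with RAD18 on the replication clamp. UBE2B had 620, 537 and 578 counts and 55.9 ± 14.2 TPM (SD, n = 3). UBE2A had 19, 7 and 14 counts, all on 1 transcript with a retained intron. The lowest replicate of UBE2B lay far above the highest of UBE2A. UBE2T, the E2 of the Fanconi anaemia pathway, had 1, 0 and 3 counts. Of the pair that works with the anaphase-promoting complex (APC/C), the ligase that drives exit from mitosis, the chain-extending UBE2S had 208, 140 and 185 counts and 16.3 ± 4.94 TPM (SD, n = 3). The chain-initiating UBE2C had 1 count in replicate 1 and none in the others. By the same measure of the last 300 bases, a limit described below, UBE2A, UBE2T and UBE2C have 0 of their own and UBE2B and UBE2S have 300.

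Of the remaining 7 genes, UBE2Q1 was the third highest of the family, with 4779, 4784 and 4552 counts and 307.0 ± 88.7 TPM (SD, n = 3). UBE2O, a large enzyme with both E2 and ligase activity, had 48.5, 52.7 and 26.8 TPM and was the lowest of the highly expressed genes. UBE2QL1, a relative of UBE2Q1, had 240, 296 and 454 counts and 11.2 ± 2.08 TPM (SD, n = 3). UBE2QL1 was highest in replicate 3 by counts and in replicate 2 by TPM. UBE2L5 had 5, 9 and 3 counts and UBE2Q2 had 1 count in replicate 3. UBE2H, the E2 of the CTLH ligase complex, and UBE2U had none. UBE2M, UBE2R2 and UBE2Q1 together took 73.5% ± 2.13 (SD, n = 3) of the summed TPM of the 36 genes, which was 2661 ± 793 TPM.

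Ranked by mean TPM, the 24 E2 genes with over 3 counts in a replicate form 23 pairs of neighbours, and 10 of these kept their order in every replicate. UBE2M stood above UBE2R2, UBE2Q1 above UBE2K, UBE2K above UBE2V2, UBE2J1 above UBE2G1, UBE2D2 above UBE2B, UBE2B above UBE2O and UBE2O above UBE2S in all 3 replicates. In TPM, UBE2R2 and UBE2Q1 did not differ beyond their spread, nor did UBE2G1 and UBE2D2, and from UBE2S through UBE2D4, UBE2E2 and UBE2QL1 to UBE2G2 no neighbours kept their order. Without division by length, 13 pairs of neighbours kept their order. On that scale UBE2R2 was above UBE2Q1 in every replicate, with at least 765.1 against at most 764.0 counts per 1000000, and UBE2G1 was above UBE2D2, with at least 192.6 against at most 169.0. The highest replicate of UBE2S, 21.3 TPM, lay below the lowest of UBE2O, 26.8 TPM, so that the highly expressed genes and the rest did not overlap.

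The E2 genes with many and with few counts differed in a property of the annotation that the rule did not use. Reads of these libraries come from the 3′ end of a transcript, and counts were deposited per transcript. A gene was taken to have a 3′ end of its own if at least 100 of the last 300 exonic bases of its canonical transcript lie in no other listed transcript on that strand, and a shared 3′ end otherwise. The 36 genes split evenly. In 18 of them all 300 bases were their own, and in the other 18 (50%) between 0 and 34 bases were. Over protein-coding genes, 54.4% had a shared 3′ end.

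The 18 E2 genes with a 3′ end of their own had a median count of 823.8, none had at most 3 counts in every replicate (37.2% of protein-coding genes of this kind did), and 17 had a mean of at least 1 TPM (53.1% of protein-coding genes of this kind). The 18 with a shared 3′ end had a median count of 0.5. Of these, 12 (66.7%) had at most 3 counts in every replicate, compared with 61.8% of protein-coding genes of this kind, and 4 (22.2%) had a mean of at least 1 TPM, compared with 26.7%, the highest being UBE2V1 with 3.49 TPM. Their canonical transcript had at most 3 counts in every replicate in all 18, as it did in 93.6% of protein-coding genes with a shared 3′ end. Among the 18 genes with an end of their own this held for 1, UBE2E1 (40.7% of protein-coding genes of this kind). The median count of protein-coding genes was 20.3 with a 3′ end of their own and 0.333 with a shared one. Low counts of the second kind of gene are thus found across the annotation. What part of the low counts of UBE2N, UBE2L3, UBE2D1, UBE2H or UBE2C comes from the counting and what part from the cells was not tested.

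**Figure D2:**
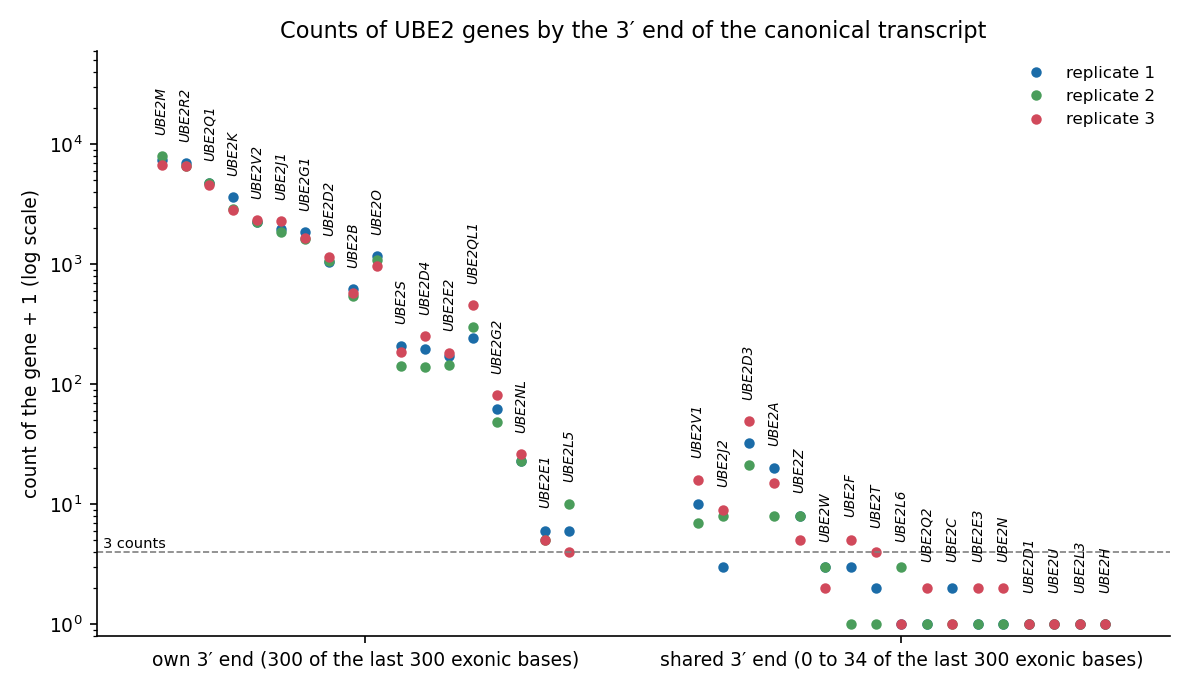
Count of each E2 gene plus 1 (log scale) in the 3 replicates, for the 18 genes whose canonical transcript has a 3′ end of its own (left) and the 18 with a shared one (right, with 1 gene without a count not drawn), each in order of mean TPM; equal counts overlie each other. On the left 0 genes stay at or under 3 counts (dashed line) in every replicate, and on the right 12 do, 5 of them without a count.

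The same counts were also described by transcript. Of 320 listed transcripts of the 36 genes, 53 had a count in a replicate, and the 138 transcripts without an exonic base of their own had 0 counts in all replicates. The shares over the transcripts of all protein-coding genes were not computed. How reads on several transcripts were counted is not given in the sources used here, and whether this fixed the 0 counts was not tested. Canonical transcripts held 99.4% ± 0.167 of the counts of the E2 genes, compared with 90.6% ± 0.776 over protein-coding genes (SD, n = 3). In the 18 genes with a shared 3′ end, however, 2 of the 225 counts of the 3 replicates were on the canonical transcript, and 182 were on transcripts with a retained intron, which reach into sequence that no other transcript covers. Over all 36 genes, such transcripts held 0.410% ± 0.143 of the counts, and over protein-coding genes 1.03% ± 0.106 (SD, n = 3). In UBE2D3, 28, 19 and 47 of the 31, 20 and 48 counts were on 1 transcript with a retained intron. At least 90% of the counts were on a single transcript in 20 of the 24 E2 genes with over 3 counts (83.3%), and in 71.1% of such protein-coding genes. For 16 of the 24 the most counted transcript was the canonical one, and for 6 it was one with a retained intron. The shares over protein-coding genes were not computed for these. Of the 6, UBE2V1, UBE2D3, UBE2A, UBE2Z and UBE2F have a shared 3′ end and UBE2G2 has one of its own.

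Overlapping genes touch a few of these values. The last exonic bases of UBE2E1 are free on its own strand but covered by NKIRAS1 on the opposite one, so that with both strands counted 19 E2 genes had a shared 3′ end. UBE2V1 shares its last bases also with the readthrough gene PEDS1-UBE2V1, which had no count. The antisense RNA UBE2D3-AS1 had 56, 78 and 100 counts, more than UBE2D3 in every replicate, and UBE2E1-AS1 had 14, 11 and 33, also more than UBE2E1. Whether the counting used strand is not given in the sources used here, so reads of such partners cannot be told apart with certainty.

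Several E2 genes have intronless copies elsewhere in the genome, and for some genes the copy had more counts than the gene. The annotation lists 54 pseudogenes with a UBE2 symbol, of which 42 are typed as processed pseudogenes. Of the 54, 17 had a count and 4 (UBE2SP2, UBE2D3P1, UBE2V1P2 and UBE2SP1, all processed) had over 3 counts in every replicate. The shares over all pseudogenes were not computed. The copies shown here differ from their gene by single bases and, in UBE2V1P2 and UBE2NL, also by gaps in the alignment. A window of 30 coding bases around a difference without a gap is shown as an example for each pair. Capitals mark the bases that differ, and positions count from the first base of the coding sequence. The sequences are those of GRCh38, read on the strand of the gene or copy. UBE2S at chr19:55401527-55401556 (minus strand) and UBE2SP2 at chr17:18677639-18677668 (plus strand) differ by C562T and C563T, UBE2D3 at chr4:102799439-102799468 (minus) and UBE2D3P1 at chr20:5292466-5292495 (minus) by C351T, UBE2V1 at chr20:50082782-50082811 (minus) and UBE2V1P2 at chr3:175718240-175718269 (minus) by C415T, and UBE2N at chr12:93410760-93410789 (minus) and UBE2NL at chrX:143884466-143884495 (plus) by C377T.
UBE2S: ggccccagggggcCCgggaggggctgaggg
UBE2SP2: ggccccagggggcTTgggaggggctgaggg
UBE2D3: ccaaacccagatgaCcccctagtgccagag
UBE2D3P1: ccaaacccagatgaTcccctagtgccagag
UBE2V1: tgaaactccctcagCcgcccgaaggacagt
UBE2V1P2: tgaaactccctcagTcgcccgaaggacagt
UBE2N: agcaaatgatgtagCggagcagtggaagac
UBE2NL: agcaaatgatgtagTggagcagtggaagac

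UBE2SP2, which is 98.2% identical to UBE2S over 497 aligned bases, had 223, 213 and 214 counts in replicates 1, 2 and 3, compared with 208, 140 and 185 of UBE2S. It exceeded its gene in every replicate on both scales, with 91.7 ± 24.4 TPM against 16.3 ± 4.94 TPM (SD, n = 3), and its 497 bases are short beside the 2559 of the UBE2S transcript. UBE2SP2 also lies opposite ZNF286B and FOXO3B. A second copy, UBE2SP1, is 98.8% identical and had only 14, 16 and 17 counts. UBE2SP1 and UBE2V1P2 also lie opposite genes on the other strand, whereas UBE2D3P1 and UBE2NL overlap no other gene. Since the use of strand in the counting is not given, reads of such genes cannot be told apart with certainty.

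UBE2D3P1, 97.3% identical to UBE2D3, had 85, 99 and 89 counts and exceeded the 31, 20 and 48 of UBE2D3 in every replicate, with 43.5 ± 14.1 TPM against 1.59 ± 0.487 TPM (SD, n = 3). UBE2V1P2, 98.6% identical to UBE2V1, had 55, 35 and 29 counts against 9, 6 and 15, and 19.4 ± 8.91 TPM against 3.49 ± 0.630 TPM (SD, n = 3). UBE2NL is 92.2% identical to UBE2N, with 53 substitutions and 41 gap positions in the alignment. It had 22, 22 and 25 counts against 0, 0 and 1, and 4.03 ± 0.841 TPM (SD, n = 3), with UBE2N at or under the floor. In the last 3 pairs the gene has a shared 3′ end, and in each pair the copy was above the gene in all 3 replicates. Of the sequences of 31 bases in each copy, 65.7% of those of UBE2SP2, 56.6% of those of UBE2V1P2, 37.9% of those of UBE2D3P1 and 16.5% of those of UBE2NL also occur in the transcripts of the gene. The aligned part lies away from the 3′ end of the canonical transcript of the gene. UBE2SP2 aligns to bases 370 to 866 of the 2559 of UBE2S, UBE2D3P1 to bases 254 to 697 of the 3729 of UBE2D3, UBE2V1P2 to bases 21 to 461 of the 2110 of UBE2V1 and UBE2NL to bases 29 to 1204 of the 4877 of UBE2N. How reads that match gene and copy alike were counted is not given in the sources used here, and their part in these counts was not tested. In all, pseudogenes held 1.20% ± 0.0342 of the counts with a UBE2 symbol (SD, n = 3), compared with 6.47% ± 0.163 of the counts of all protein-coding genes and pseudogenes. In TPM, the share of the pseudogenes with a UBE2 symbol was 5.98% ± 0.255 (SD, n = 3).

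**Figure D3:**
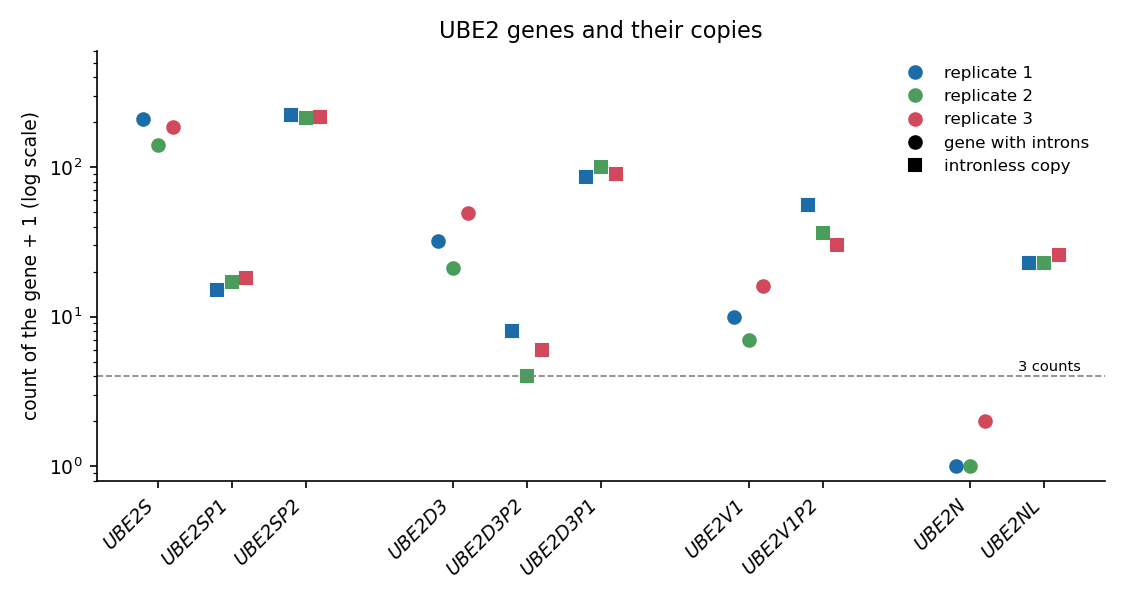
Count plus 1 (log scale) of 4 E2 genes with introns (circles) and of their intronless copies (squares) in the 3 replicates. UBE2SP2, UBE2D3P1, UBE2V1P2 and UBE2NL lie above their gene in every replicate, whereas UBE2SP1 lies below UBE2S and UBE2D3P2 below UBE2D3.

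The study mapped i-motifs (iMs) and G-quadruplexes (G4s), structures that C-rich and G-rich DNA can fold into, and the promoters of the E2 genes were therefore described by the sequences that could form them. A putative iM was 4 tracts of at least 3 C (CCC) with loops of 0 to 7 bases on the coding strand within 1 kb on either side of the canonical start site, and a putative G4 the same with G (GGG). Since C on one strand is G on the other, a putative iM on the coding strand is a putative G4 on the opposite strand. The E2 promoters held a putative iM in 24 of 36 genes (66.7%, compared with 49.5% of protein-coding genes), a putative G4 in 28 (77.8%, compared with 55.5%) and both in 22 (61.1%, compared with 33.8%). Their median GC content was 60.3%, compared with 56.0%. The 6 genes with neither were UBE2U, UBE2T, UBE2C, UBE2D4, UBE2V2 and UBE2NL.

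Putative iMs were found in 5 of the 10 highly expressed E2 genes, 4 of the 7 medium, 4 of the 4 low and 11 of the 15 below 1 TPM, and putative G4s in 9, 4, 4 and 11 of them. Over protein-coding genes the share with a putative iM was 55.9% in the high class, 55.1% in the medium, 54.2% in the low and 46.0% below 1 TPM. That with a putative G4 was 60.2%, 61.3%, 60.4% and 52.2%. By the 3′ end, 11 of the 18 E2 genes with an end of their own and 13 of the 18 with a shared end had a putative iM. Over protein-coding genes these were 3908 of 8518 and 5677 of 10833. Such sequences therefore stood at promoters of both much counted and hardly counted E2 genes. In the 250 bases before to 50 bases after the start site, 13 E2 genes had a putative iM (36.1%, compared with 19.8% of protein-coding genes) and 14 a putative G4 (38.9%, compared with 20.5%). RefSeq promoter windows of this length (GRCh38.p14) were at hand for 27 of the 36 genes. To show what these sequences look like, 4 are given for the 2 most counted genes and for UBE2N, which had 1 count, with the tracts in capitals. They lie at chr9:33817140-33817154 and chr9:33817047-33817061 (plus strand, UBE2R2), chr19:58558649-58558665 (minus strand, UBE2M) and chr12:93442043-93442061 (minus strand, UBE2N).
UBE2R2 putative iM: CCCtCCCtCCCtCCC
UBE2R2 putative G4: GGGGGGaGGGGaGGG
UBE2M putative G4: GGGcGGGGccGGGcGGG
UBE2N putative iM: CCCgCCCgtgCCCgagCCC

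The replicates were compared over the 14 E2 genes with at least 50 counts in each of them. In deposited TPM, replicate 3 was below the mean of replicates 1 and 2 for 12 of the 14, as it was for 89.3% of protein-coding genes with as many counts, with a median log2 ratio of -0.71 for the E2 genes and -0.57 for protein-coding genes. With mitochondrial genes left out and the rest rescaled, 10 of the 14 were lower (53.4% of protein-coding genes), and the median log2 ratio was -0.18 and -0.03. After this rescaling, fewer E2 genes were lower in replicate 3 and their median ratio was less negative, and the cause of the lower levels was not tested. On this scale UBE2M had 1804, 2105 and 1545 TPM, and its log2 ratio was -0.34. The ratios of UBE2O (-0.38) and UBE2K (-0.35) were lower still.

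The genes with the highest ratio were UBE2QL1 and UBE2D4. Without mitochondrial genes, UBE2QL1 had 11.6, 15.5 and 20.7 TPM and a log2 ratio of 0.61, and UBE2D4 had 18.3, 15.1 and 24.4 TPM and a log2 ratio of 0.55. In deposited TPM the log2 ratios of these genes were 0.07 and 0.02. Among protein-coding genes with as many counts, 22.1% were at least 0.5 from 0 without mitochondrial genes and 59.0% in deposited TPM. The coefficient of variation of TPM without mitochondrial genes over the 3 replicates had a median of 9.16% for the 14 E2 genes and 13.1% for protein-coding genes, and it ranged from 2.43% for UBE2E2 to 28.6% for UBE2QL1.

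**Figure D4:**
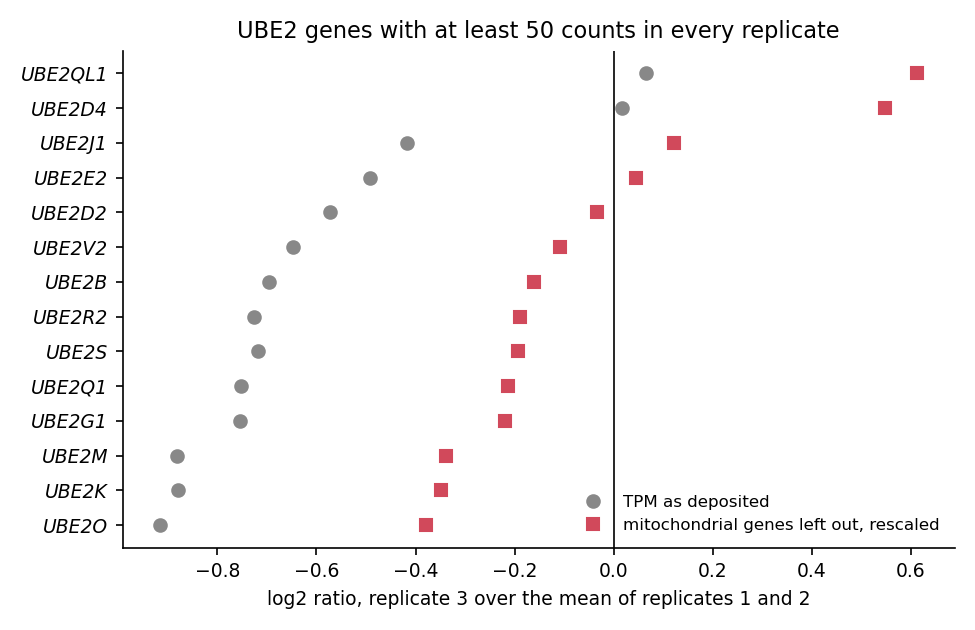
Log2 ratio of replicate 3 over the mean of replicates 1 and 2 for the 14 E2 genes that had 50 or more counts in every replicate, in deposited TPM (circles) and after rescaling without mitochondrial genes (squares). In deposited TPM 12 genes lie below 0 and without mitochondrial genes 10 do, while UBE2QL1 and UBE2D4 lie above 0 on both scales.

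The genes around the E2s in the pathway were taken from lists of 59 genes, of which 38 had a mean of at least 1 TPM and 17 had at most 3 counts in every replicate. The shares over protein-coding genes were 38.2% and 50.9%. Among the activating enzymes, 6 of 9 had a mean of at least 1 TPM. UBA1, the main E1 for ubiquitin, had 6, 0 and 9 counts and has a shared 3′ end, whereas UBA6, the other E1 for ubiquitin, had 2104, 1974 and 2164 counts and an end of its own. Of the pair that activates NEDD8, UBA3 had 2.52 ± 1.17 TPM and NAE1 8.99 ± 4.08 TPM (SD, n = 3), and both have a shared 3′ end. Of the SUMO pair, UBA2, with a 3′ end of its own, had 39.6 ± 11.9 TPM (SD, n = 3) and SAE1, with a shared one, had 0, 7 and 4 counts.

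Among the modifiers, 2 of 4 ubiquitin genes had a mean of at least 1 TPM. UBB, a polyubiquitin gene with a shared 3′ end, had 0, 1 and 0 counts in replicates 1, 2 and 3. Of 8 ubiquitin-like modifiers, 4 were highly expressed (SUMO2, UFM1, ATG12 and NEDD8) and 4 had no count, among them SUMO3 and ISG15, both with a shared 3′ end. NEDD8, the cargo of UBE2M, had 30.6 ± 11.2 TPM (SD, n = 3) although its 3′ end is shared. Of 8 E2 and E2-like genes with other symbols, 4 had a mean of at least 1 TPM, and UFC1, the E2 of the modifier UFM1, had 5654, 5340 and 5046 counts and 1275 ± 375 TPM (SD, n = 3). CDC34, the closest relative of UBE2R2, had no count and has a shared 3′ end.

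Among 30 ligase genes that work with the E2s, 22 had a mean of at least 1 TPM. RNF20, the H2B ligase that works with UBE2A and UBE2B, had 116.1 ± 26.6 TPM and RAD18 had 34.02 ± 11.2 TPM (SD, n = 3). RNF40, the partner of RNF20, had 2, 0 and 3 counts and has a shared 3′ end. FANCL, the ligase of UBE2T, had 28.6 ± 4.23 TPM (SD, n = 3) with a shared 3′ end, while UBE2T, whose 3′ end is also shared, had at most 3 counts. For the APC/C, ANAPC2 and CDC20, both with a shared 3′ end, had no count. FZR1, with an end of its own, had 12.9 ± 3.76 TPM (SD, n = 3). Of the 59 genes of these lists, 28 have a shared 3′ end, of which 15 had at most 3 counts in every replicate (61.8% of protein-coding genes of this kind) and 9 had a mean of at least 1 TPM (26.7%). Of the 30 with a 3′ end of their own, 28 had a mean of at least 1 TPM (53.1% of protein-coding genes of this kind).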

How the data were processed

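RNA-seq was analysed in 3 replicates of HEK293T cells. Libraries were prepared from total RNA (2 ug per sample) with a QuantSeq 3′ kit, although the labels give the material as genomic DNA. The submitters' processing notes name Trimmomatic 0.38.0, HISAT2 2.2.1, featureCounts 2.2.1 and hg38. Settings for strand and for reads on several transcripts are not given in the sources used here. The deposited counts are whole reads, not normalized, on each of 247541 transcripts. The TPM deposited by the authors are these counts divided by transcript length and rescaled to 1000000, which lowers long transcripts relative to short ones in 3′ libraries.

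Transcripts were matched without version to GENCODE v44 (223558 matched, 61193 genes). The others held 0.158% to 0.166% of counts and stayed in the totals, and counts and TPM were summed per gene. Quartiles were by linear interpolation. Copies were aligned with Biopython 1.88. All E2 genes could be named, apart from items that are not reported here, and other genes came from lists of the pathway, of cell markers and of UBE2 symbols. NKIRAS1, ZNF286B and FOXO3B were named after their overlap was seen. The members and lists were chosen with earlier results of these data known. The functions were tested on simulated data, with 200 of 200 planted tracts found, 0 of 200 found in sequences without them and 500 of 500 categories recovered. Alternatives were other thresholds, windows, motif rules and scales, omission of the mitochondrial genes and omission of single replicates. Protein sequences were not used here. Python 3.11.15, numpy 2.4.6, pandas 2.3.3 and matplotlib 3.10.9 were used.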

Additional observations from a re-analysis of the deposited data

How the results depend on the processing

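Over 11 main results, 65 alternative values were computed, of which 51 stayed within 1 SD (counts of genes within 1.5 times) and 14 moved. The number of E2 genes with at least 1 TPM was 21 and ranged from 14 (mean of at least 10 TPM) to 31 (mean above 0), and that of highly expressed genes was 10 and ranged from 8 to 15. The median over the 36 genes, 1.92 TPM, was 1.71 to 2.14 TPM with each replicate left out, 2.72 TPM without mitochondrial genes, 1.58 counts per 1000000 without division by length and 16.3 TPM over genes with at least 1 TPM. The summed level, 2661 TPM, was 3618 TPM without mitochondrial genes and 4417 counts per 1000000 without division by length. Without UBE2M, an alternative added after seeing the data, it was 1316 TPM. The share of pseudogenes was 1.20% of counts and 5.98% of TPM. The median count of genes with a 3′ end of their own, 823.8, was 787.5 to 831.5 with each replicate left out, 578.3 with the last 500 exonic bases and, in an alternative added after seeing the data, 1069 with transcripts of both strands. That of genes with a shared 3′ end stayed between 0.5 and 0.75 in all of these. Promoters with a putative iM numbered 24 within 1 kb and 13 in the shorter window, and those with a putative G4 28 and 14. Of 96 alternative values of single genes, 18 moved beyond 1 SD, all 18 without mitochondrial genes, and the cause was not tested further. No paired analysis was possible because the samples analysed here form 1 group. Genes at or under 3 counts cannot be ranked at this depth.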
